A study of Mus musculus with 8 samples.

Results

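The genes described here are 7 enzymes of cholesterol synthesis, namely Hmgcs1, Idi1, Fdps, Fdft1, Sqle, Cyp51 and Dhcr7, measured in the hippocampus of BTBR and C57BL/6J (B6) mice. They were chosen by name, and every non-control probe whose array name is 1 of the 7 symbols was taken. This gave 15 probes of 41174 on the array, for 7 of 27373 named genes, and all 15 passed the filter on dim signal. Hippocampal RNA came from 4 BTBR and 4 B6 mice, 1 mouse per array, all male and 5 months old with no drug given. BTBR animals carry the genotype BTBR T+ Itpr3tf/J, B6 animals are listed as wild type, and both are inbred strains, so the strains differ across the whole genome and not at a single locus. The strain field of the labels reads C57BL/6J for all 8 animals, and title, source and genotype place 4 of them in the BTBR group.

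Cholesterol hardly passes from blood to brain, so that neurons and glia depend on synthesis within the tissue. The pathway joins acetyl units into mevalonate, turns mevalonate into isoprenoid diphosphates, condenses these into squalene, and closes squalene into a sterol that is trimmed to cholesterol. Most of these genes are known targets of the transcription factor SREBP2, which Scap carries to its site of cleavage and Insig1 holds back when sterols are plentiful. In brain the pathway is known for its activity in astrocytes and in oligodendrocytes that build myelin.

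Each value below is a log2 normalised intensity, made by subtracting local background, adding 50 and quantile normalising the 8 arrays. A difference is BTBR minus B6, fitted with limma over 27982 probes and called at a Benjamini-Hochberg adjusted p under 0.05. Between 56.8% and 71.9% of probes were well above background per array, and no probe was saturated. Replicates 1 and 2 of each strain shared slide 1, and replicates 3 and 4 shared slide 2. BTBR replicates 1 and 2, both on slide 1, stood apart in tissue markers. Their mean log2 level over 8 hippocampal neuron markers was 11.77 and 11.78, against 12.81 to 13.42 on the other 6 arrays, and over 9 oligodendrocyte markers it was 14.11 and 14.44, against 13.38 to 13.83. Over 5 thalamus markers it was 13.35 in BTBR replicate 1 and 11.10 in BTBR replicate 2, against 10.30 to 10.77 elsewhere. Over 6 choroid plexus markers it was 12.57 and 12.50, against 10.59 to 11.88. The difference on slide 2 is taken between arrays that do not include these BTBR arrays. The spread behind every adjusted p for a single slide was pooled over both slides, and so still draws on them. Over all tested probes the median difference was 0.01, and 46.8% of differences were below 0. Levels of different probes were not compared with each other, because brightness also depends on the probe.

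Hmgcs1, the cytosolic synthase that makes HMG-CoA at the entry to the pathway, was lower in the BTBR hippocampus at 1 of its 3 probes. At probe A_51_P146941 the B6 arrays read 14.73, 14.86, 14.72 and 14.65, and the BTBR arrays read 13.46, 13.24, 13.42 and 13.41. All 4 BTBR arrays lay below all 4 B6 arrays, and the SD within a strain was 0.09 in B6 and 0.10 in BTBR. The level was 2.57-fold lower in BTBR, a log2 difference of -1.36 ± 0.07 (SE, n = 4 per strain, 95% interval -1.53 to -1.19, limma adjusted p = 5.9e-06). It was -1.45 on slide 1 and -1.27 on slide 2 (adjusted p = 7.6e-04 with the pooled spread), and from -1.39 to -1.31 with any single array left out. A difference of at least this size, in either direction, was seen at 0.783% of tested probes. In whole tissue, less RNA per cell and fewer cells that express the gene cannot be told apart. The value is that of 1 probe, and neither the sequence of BTBR under the probes nor the transcript ends in each strain were examined here.

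The other Hmgcs1 probes gave another picture. Probe A_52_P388072 read 8.81, 9.00, 8.96 and 9.09 in B6 and 9.10, 8.83, 8.98 and 9.03 in BTBR, so the strains overlapped. Its difference was 0.02 (95% interval -0.17 to 0.21, limma adjusted p = 0.94), an interval that does not reach the difference of the first probe. Probe A_52_P119039 read 8.31, 8.38, 8.17 and 8.18 in B6 and 8.16, 7.91, 7.88 and 7.95 in BTBR. The strains did not overlap there, but the lowest B6 array (8.17) and the highest BTBR array (8.16) nearly touched. Its difference was -0.29 (95% interval -0.48 to -0.10) and was not called (limma adjusted p = 0.086), and the probe was well above background on only 3 of 4 arrays of each strain. The value depends on how background is treated. It was -0.87 (limma adjusted p = 0.064) with the processed signal of the scanner software, and -0.17 with the deposited matrix of the authors. It passed with the slide as a block (adjusted p = 0.046) and without BTBR replicate 1 (adjusted p = 0.036).

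The 3 probes are shown because they give different answers for the same gene. All lie on the minus strand of chr13_random in mm9, a collection of chromosome 13 sequence that this build had not placed. A_51_P146941 lies at chr13_random:114807-114866, A_52_P388072 at chr13_random:117667-117726 and A_52_P119039 at chr13_random:121437-121496. The called probe is therefore the one farthest along the direction of transcription, 2860 bases past the next. The array files do not say whether a probe lies in coding sequence or in a UTR, and list A_52_P119039 under a cDNA clone in place of the reference transcript. The first 30 of the 60 bases of each probe are, 5′ to 3′:
A_51_P146941: tatgttttgaaaagagtaattttaacgttt
A_52_P388072: tgcccttgataaaataacagcaagtttatg
A_52_P119039: ggcagtgtcataatgtgactggagtgagaa

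**Figure D1:**
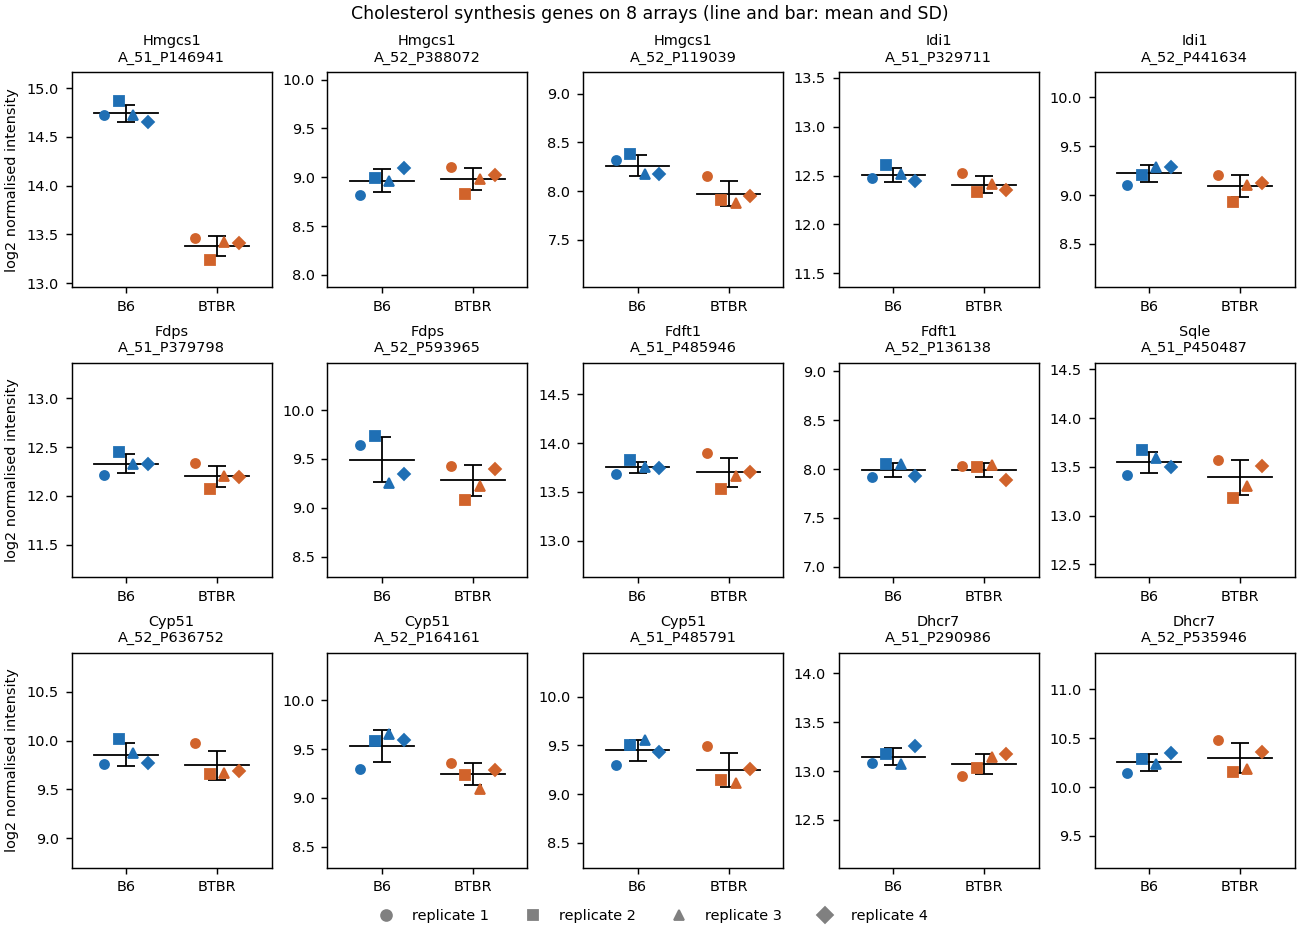
Log2 normalised intensity (vertical axis, each panel spanning a range of the same size) of the 15 probes in B6 and BTBR, with 1 point per array and the mean and SD in black. Hmgcs1 A_51_P146941 falls from a mean of 14.74 to 13.38 without overlap, whereas the strains overlap or nearly touch in the other panels.

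Idi1 and Fdps follow in the isoprenoid steps, and neither was called at any probe. Idi1, which interconverts the isopentenyl diphosphates, read 12.48, 12.61, 12.52 and 12.44 in B6 and 12.52, 12.33, 12.41 and 12.36 in BTBR at A_51_P329711 (chr13:8891386-8891445, plus strand). The strains overlapped, and the difference was -0.10 (95% interval -0.26 to 0.05, limma adjusted p = 0.49). Its second probe, A_52_P441634 (chr13:8886802-8887206), gave -0.13 (95% interval -0.31 to 0.05). The Idi1 intervals thus leave no room for a fall of the size seen at the bright Hmgcs1 probe.

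Fdps, the farnesyl diphosphate synthase that stands where sterol and non-sterol isoprenoids part, read 12.22, 12.45, 12.32 and 12.32 in B6 at A_51_P379798 (chr3:88898812-88898952, minus strand). The BTBR arrays read 12.34, 12.07, 12.20 and 12.20, within and below the B6 range, for a difference of -0.13 (95% interval -0.30 to 0.05, limma adjusted p = 0.45). Its other probe, A_52_P593965 (chr3:88903026-88903085), gave -0.21 (95% interval -0.49 to 0.07). There the slides parted, with -0.43 on slide 1 and 0.01 on slide 2, since B6 replicates 1 and 2 read 9.64 and 9.73 and B6 replicates 3 and 4 read 9.26 and 9.34. That gap between slides was not called (strain by slide interaction, limma adjusted p = 0.50).

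Neither squalene enzyme was called. Fdft1, the squalene synthase that commits farnesyl units to sterols, read 13.69, 13.82, 13.76 and 13.74 in B6 and 13.90, 13.53, 13.66 and 13.71 in BTBR at A_51_P485946 (chr14:63765769-63770009, minus strand). BTBR replicates 1 and 2 enclosed the whole B6 range, and the difference was -0.05 (95% interval -0.24 to 0.14, limma adjusted p = 0.81). The second Fdft1 probe, A_52_P136138 (chr14:63764562-63764621), gave 0.01 (95% interval -0.14 to 0.16) near background.

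Sqle, the squalene epoxidase, has 1 probe, A_51_P450487 (chr15:59162384-59162443, plus strand). It read 13.42, 13.67, 13.59 and 13.50 in B6 and 13.57, 13.19, 13.30 and 13.51 in BTBR. The strains overlapped, and the difference was -0.15 (95% interval -0.38 to 0.07, limma adjusted p = 0.49). Both slides gave nearly the same value, -0.16 and -0.14.

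Cyp51, the demethylase that acts on lanosterol, had negative differences at all 3 of its probes, and none was called. The largest was at A_52_P164161 (chr5:4081471-4081530, minus strand), where B6 read 9.30, 9.58, 9.65 and 9.60 and BTBR read 9.36, 9.24, 9.09 and 9.29. B6 replicate 1 lay below BTBR replicate 1, and the other 3 B6 arrays lay above all BTBR arrays. The difference was -0.29 (95% interval -0.51 to -0.07, limma adjusted p = 0.13), and without B6 replicate 1 it was -0.37 and passed (adjusted p = 0.037). A_52_P636752 (chr5:4083236-4083295) gave -0.11 (95% interval -0.32 to 0.11), and A_51_P485791 (chr5:4092033-4092439) gave -0.20 (95% interval -0.42 to 0.02).

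Dhcr7, the reductase that completes cholesterol, had differences of opposite sign at its 2 probes, and neither was called. A_51_P290986 (chr7:151034253-151034312, plus strand) read 13.08, 13.18, 13.07 and 13.26 in B6 and 12.95, 13.03, 13.15 and 13.17 in BTBR. The strains overlapped, with a difference of -0.07 (95% interval -0.24 to 0.10, limma adjusted p = 0.69). A_52_P535946 (chr7:151033682-151033741) gave 0.04 (95% interval -0.16 to 0.24, limma adjusted p = 0.86).

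Over the 7 genes, 1 of 15 probes was called, against a background of 7.61% of all tested probes in either direction and 4.3% lower in BTBR. Arrays of the strains did not overlap at 2 of the 15 probes, both of Hmgcs1 with BTBR lower, against 14.2% of all probes in either direction and 7.27% with BTBR lower. The shares in either direction are near the background. An unadjusted p under 0.05 was reached by 3 of the 15 probes, and by 18.5% of all tested probes. Differences were below 0 at 12 of the 15 probes, with a median of -0.13. Without the called probe the median was -0.12 and the range ran from -0.29 to 0.04. By the brightest probe of each gene all 7 differences were below 0, with a median of -0.11 with and without Hmgcs1. Outside the called probe the 95% intervals ran from -0.51 to 0.24, none of which reaches the difference of A_51_P146941. With the processed signal, Hmgcs1 A_52_P119039 came nearer, at -0.87.

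**Figure D2:**
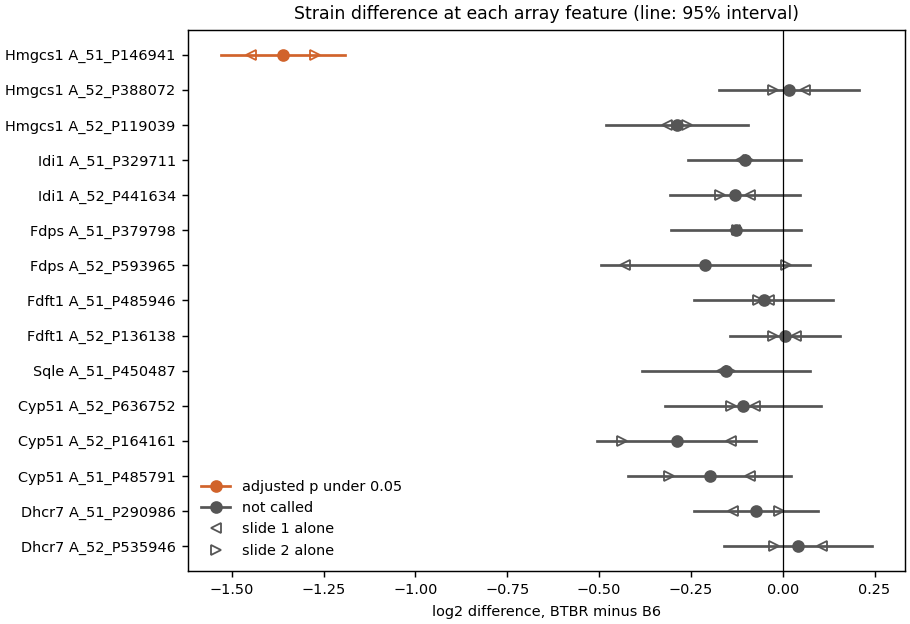
Log2 difference, BTBR minus B6, at each of the 15 probes (points) with 95% intervals (lines), and the difference within slide 1 and within slide 2 (open triangles). Hmgcs1 A_51_P146941 stands at -1.36, and the other 14 probes lie between -0.29 and 0.04.

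Probes that bridge an intron read spliced RNA, and 4 of the 15 span more genome than their own 60 bases. They are shown because they mark processed transcripts of 4 of the genes that were not called, and their differences ran from -0.20 (Cyp51) to -0.05 (Fdft1). Their sequences, 5′ to 3′, are:
Idi1 A_52_P441634: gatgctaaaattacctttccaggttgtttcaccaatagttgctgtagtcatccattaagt
Fdps A_51_P379798: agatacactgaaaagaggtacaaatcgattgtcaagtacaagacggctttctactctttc
Fdft1 A_51_P485946: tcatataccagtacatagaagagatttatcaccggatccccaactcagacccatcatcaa
Cyp51 A_51_P485791: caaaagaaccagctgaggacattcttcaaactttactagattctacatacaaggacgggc
Among genes with more than 1 probe, correlation of array deviations between probes of the same gene ran from 0.03 in Dhcr7 to 0.85 in Cyp51, as a description over 8 arrays.

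Of the 7 genes, 6 varied together among arrays of the same strain. These 6 were set apart from Dhcr7 by the correlations given here, and r between unrelated genes was not computed for comparison. With each strain mean removed, Hmgcs1, Idi1, Fdps, Fdft1, Sqle and Cyp51, each at its brightest probe, deviated together over the 8 arrays, with Pearson r from 0.71 to 0.95 in 15 pairs (median 0.84). BTBR replicate 1 was above its strain mean and BTBR replicate 2 below it for all 6 genes, and B6 replicate 2 was above and B6 replicate 1 below for all 6. Without the 2 arrays farthest from the rest, BTBR replicates 1 and 2, the 15 correlations ran from 0.42 to 0.91 (median 0.73). Dhcr7 at its brightest probe, A_51_P290986, did not share this pattern, with r from -0.45 to 0.003 against the other 6 genes. Its other probe, A_52_P535946, read 10.14, 10.28, 10.24 and 10.35 in B6 (mean 10.26). In BTBR it read 10.48, 10.16, 10.18 and 10.36 (mean 10.30). There replicates 1 and 2 of both strains stood on the same sides of their strain means as in the 6 genes. The mean deviation of the 7 genes reached 0.12 in BTBR replicate 1 and -0.12 in BTBR replicate 2. These are the 2 BTBR arrays that stood apart in tissue markers, and B6 replicate 2, which did not stand apart there, deviated by 0.10. The part of tissue makeup, slide and labelling in these deviations was not tested.

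**Figure D3:**
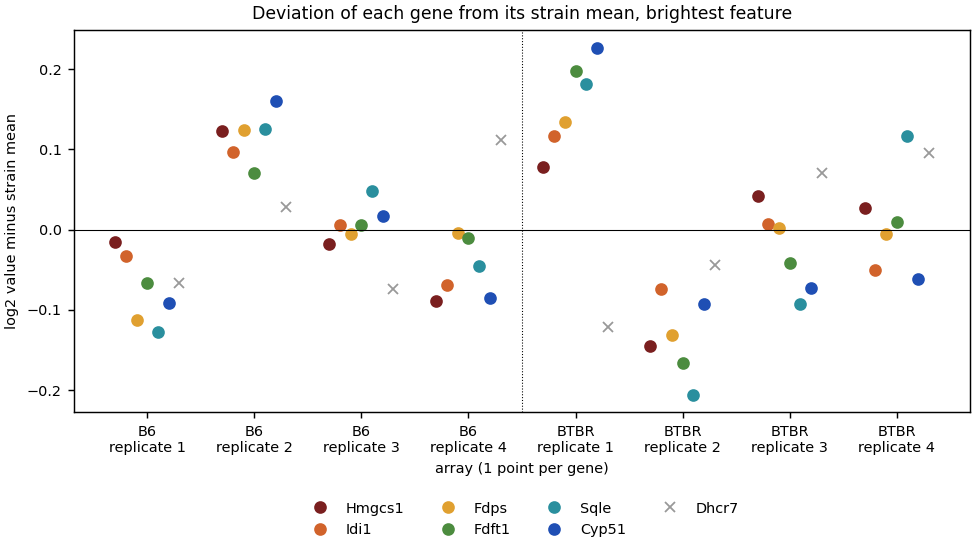
Log2 value of each gene at its brightest probe minus the mean of its strain (vertical axis) on each of the 8 arrays, with 1 point per gene. The 6 coloured genes sit on the same side of 0 in replicates 1 and 2 of both strains, from -0.21 for Sqle in BTBR replicate 2 to 0.23 for Cyp51 in BTBR replicate 1, and Dhcr7 (crosses) stands on the other side of 0 in BTBR replicate 1.

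Of 18399 genes, those whose deviations were most like the mean of the 7 genes, members aside, were R74862 (r = 0.99), Zfp341 (r = 0.98), Ddx56 (r = 0.97), Cdh12 (r = 0.96) and Pigk (r = 0.96). The measure is Pearson r over 8 arrays with strain means removed, each gene at its brightest probe, and the mean contains the members themselves. Ranked among all genes by it, Fdps had rank 2, Fdft1 rank 10, Sqle rank 12, Cyp51 rank 48, Hmgcs1 rank 64, Idi1 rank 66 and Dhcr7 rank 9874. None of the 5 was called between the strains, with limma adjusted p from 0.081 for Cdh12 to 0.75 for Ddx56.

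Upstream sequence was available for 4 of the 7 genes in the RefSeq table of build GRCm38.p6, and is shown for Hmgcs1, the gene called, and for 2 of the genes that varied with it. In the 250 bases before the start, 3 motifs were searched on both strands: TCACNCCAC for the sterol regulatory element that SREBP proteins bind, CCAAT, and GGGCGG for the GC box. Capitals mark the matches, and none overlap. The windows are Hmgcs1 at chr13:119690101-119690350 on the plus strand, Idi1 at chr13:8885356-8885605 on the plus strand, and Cyp51 at chr5:4104698-4104947 on the minus strand:
Hmgcs1: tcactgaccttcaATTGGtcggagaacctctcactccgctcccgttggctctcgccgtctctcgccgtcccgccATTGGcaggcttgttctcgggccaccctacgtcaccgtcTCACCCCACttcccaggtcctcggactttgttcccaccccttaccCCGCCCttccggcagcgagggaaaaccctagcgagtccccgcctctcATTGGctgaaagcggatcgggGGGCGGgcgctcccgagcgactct
Idi1: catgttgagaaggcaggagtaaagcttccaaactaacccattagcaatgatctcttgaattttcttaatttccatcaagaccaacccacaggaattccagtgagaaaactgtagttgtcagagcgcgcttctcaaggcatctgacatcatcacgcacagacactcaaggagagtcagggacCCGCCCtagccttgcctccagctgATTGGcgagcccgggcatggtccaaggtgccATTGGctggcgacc
Cyp51: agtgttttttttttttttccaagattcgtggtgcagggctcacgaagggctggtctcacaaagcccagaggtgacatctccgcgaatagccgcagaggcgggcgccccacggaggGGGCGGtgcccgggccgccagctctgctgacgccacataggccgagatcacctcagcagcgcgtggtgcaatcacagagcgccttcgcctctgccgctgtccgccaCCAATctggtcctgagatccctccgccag
The sterol element letters occur once, in Hmgcs1, 137 bases before the start, and in 1.05% of 32851 windows of this length. CCAAT occurs 3 times in Hmgcs1, 2 times in Idi1 and 1 time in Cyp51, and in 33.8% of all windows. GGGCGG occurs 2 times in Hmgcs1 and 1 time in each of the other 2, and in 32.7% of all windows. Dhcr7 has 3 windows, of which 1 holds no match, 1 holds a GC box and 1 holds 2 CCAAT and 3 GGGCGG. A match describes letters only and no binding was measured.

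Other genes of cholesterol handling were read by the brightest tested probe of each, in 6 lists with 58 of 60 genes tested. Of these, 4 were called, or 6.9%, against 7.82% of all 18399 genes. The share is near the background. Of the 4, 2 were higher in BTBR, 1 was lower, and 1, Sc5d, had probes that disagree.

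Among 14 other synthesis enzymes 1 was called, with a median difference of 0.04. Sc5d, the sterol desaturase just before Dhcr7, was called in opposite directions by its 2 probes. At A_52_P67637 (chr9:42060087-42060146) it was 1.95-fold higher, with B6 at 12.24, 12.31, 12.51 and 12.54 and BTBR at 13.45, 13.16, 13.42 and 13.41 (limma adjusted p = 3.0e-04). At A_51_P418056 (chr9:42062857-42062916) it was 1.65-fold lower, with B6 at 13.11, 13.22, 13.12 and 13.20 and BTBR at 12.49, 12.40, 12.36 and 12.52 (limma adjusted p = 1.3e-04). Like Hmgcs1, this gene had no single answer over its probes, and no direction is given for it.

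In the branch that uses isoprenoids for other ends, 1 of 6 tested genes was called. Fntb, the beta subunit of protein farnesyltransferase, was 1.68-fold lower at A_52_P235241 (difference -0.75 ± 0.14 SE, n = 4 per strain, limma adjusted p = 0.011) and -0.07 at its second probe. Its difference did not pass within slide 1 (-0.63, adjusted p = 0.10) or slide 2 (-0.87, adjusted p = 0.069), with the pooled spread. Over the 23 alternatives in processing the Fntb difference ran from -1.21 to -0.41. Ggps1, the geranylgeranyl diphosphate synthase, was not called at its brightest probe (-0.20, adjusted p = 0.17), but both of its other probes were called lower, at -0.37 and -0.39. Dhdds, of dolichol synthesis, gave -0.20 at its brightest probe (adjusted p = 0.12) and was called higher at the other (0.31, adjusted p = 0.016). Ggps1 and Dhdds were singled out after their values were seen. Over all 94 tested probes of the 58 genes 9 were called, 5 higher and 4 lower, near the 7.61% of all tested probes.

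None of 7 regulators of SREBP was called by limma, with 1 at an unadjusted p under 0.05 and 0 by the rank product, the rank-based test the study used. Srebf2, which encodes SREBP2, gave -0.05 (95% interval -0.21 to 0.11) and Insig1 gave -0.12 (95% interval -0.37 to 0.13). None of 9 uptake and trafficking genes was called by limma, with 1 at an unadjusted p under 0.05, 0 by the rank product and a median of 0.02.

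Among 13 genes of export and turnover 2 were called, and both encode liver X receptors, which sense oxysterols. Of the 13 differences 11 were above 0 and 2 below, with a median of 0.19, against 0.01 over all tested genes. Nr1h3 was 1.43-fold higher in BTBR (difference 0.52 ± 0.08 SE, limma adjusted p = 0.0033) and Nr1h2 was 1.37-fold higher (0.46 ± 0.08 SE, limma adjusted p = 0.0070), each with n = 4 per strain and no overlap. Neither passed within slide 2 with the pooled spread (adjusted p = 0.098 and 0.14), nor did either by the rank product (pfp 0.087 and 0.16). Soat1, which esterifies cholesterol and was singled out after its values were seen, gave -0.10 at its brightest probe and was called higher at A_52_P642167 (difference 0.59, limma adjusted p = 0.0042). Their known targets Abca1 and Abcg1, which pass cholesterol to lipoproteins, gave 0.19 and 0.10 and were not called (limma adjusted p = 0.33 and 0.73). None of 9 fatty acid synthesis genes under SREBP was called by limma, with 1 at an unadjusted p under 0.05, 0 by the rank product and a median of 0.08. With the slide as a block Elovl6, a fatty acid elongase, passed (0.28, limma adjusted p = 0.021).

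**Figure D4:**
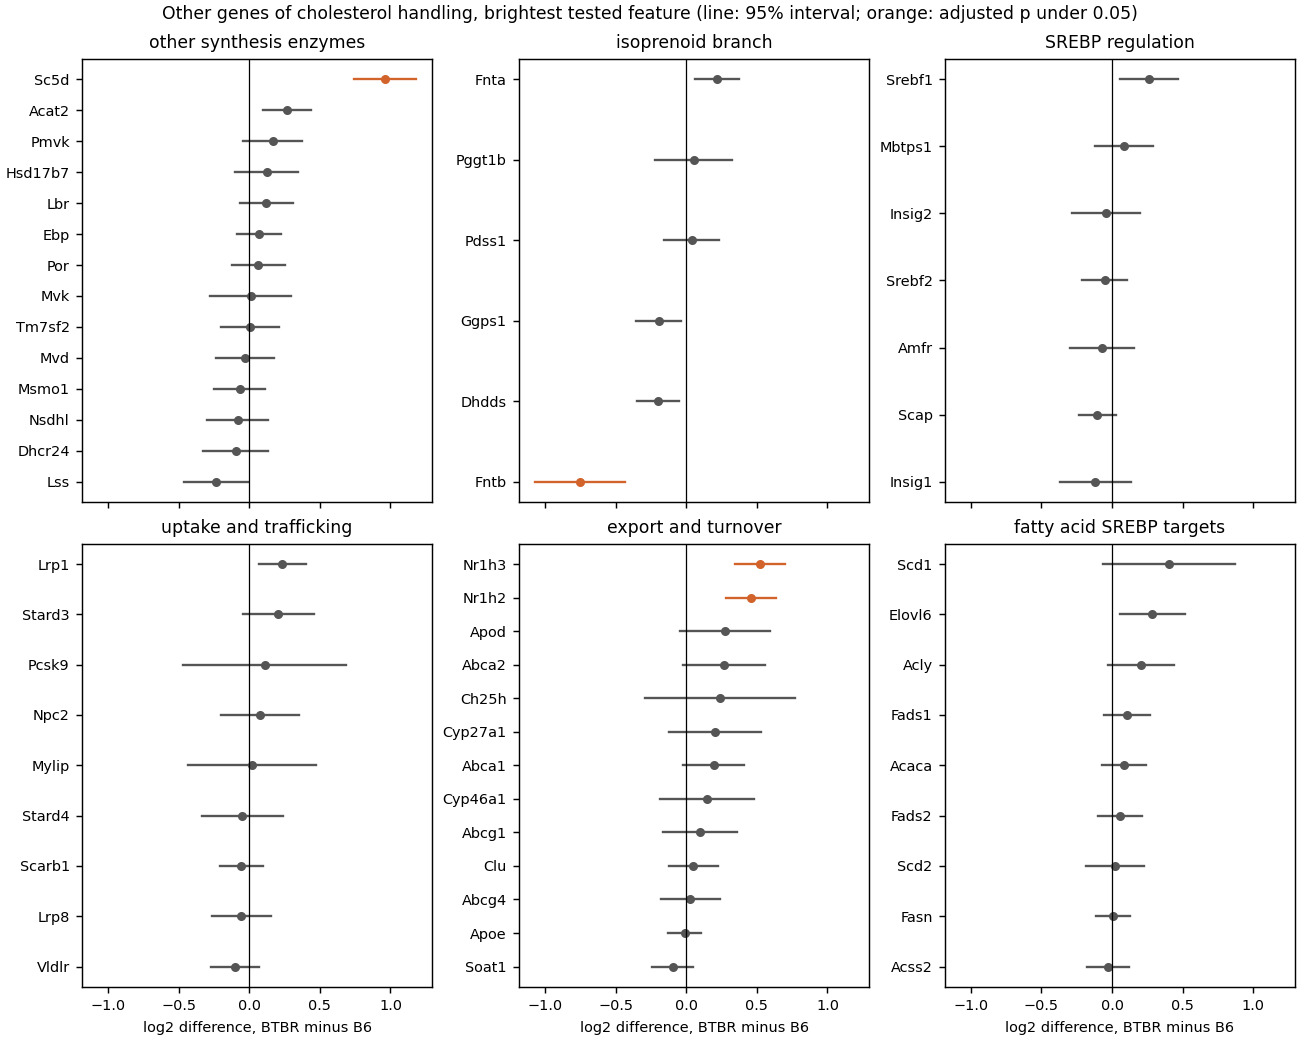
Log2 difference, BTBR minus B6 (horizontal axis), of 58 genes in 6 lists at the brightest tested probe, with 95% intervals. The 4 called genes, Sc5d, Fntb, Nr1h3 and Nr1h2, are in orange.

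Cells that carry the pathway were checked through marker lists, given as the mean log2 level over a list on each array. None of 9 oligodendrocyte markers was called by limma (1 at an unadjusted p under 0.05, 1 by the rank product), and the mean level ran from 13.66 to 13.83 in B6 and from 13.38 to 14.44 in BTBR. Of 9 astrocyte markers 1 was called, Gfap, an intermediate filament of astrocytes, 2.47-fold lower in BTBR (difference -1.30, limma adjusted p = 0.0014) and 1.48-fold and 1.40-fold lower at its other probes, both called. The astrocyte level ran from 14.44 to 14.51 in B6 and from 14.15 to 14.30 in BTBR, without overlap. Without Gfap the 8 remaining markers overlapped, from 14.53 to 14.58 in B6 and from 14.31 to 14.54 in BTBR, and over the list 7 differences were below 0 and 2 above. Aldoc, singled out after its values were seen, gave -0.17 at its brightest probe and was called 1.53-fold lower at the other (limma adjusted p = 0.0051). The part of astrocytes in the Hmgcs1 difference was not tested. Of 8 neuron markers 1 was called (Nefl, 1.57-fold lower, and 3.81-fold lower at its other probe), of 7 microglia markers 3 (among them Cx3cr1, 2.65-fold higher but -0.10 and not called at its other probe, and C1qb, 2.02-fold lower) and of 5 endothelial markers 1 (Slco1c1, 1.66-fold higher, not called within slide 2 at 0.51, adjusted p = 0.17 with the pooled spread). Syt1, a neuron marker singled out after its values were seen, gave 0.03 at the brightest of its 6 tested probes. It was called at only 1 of them, A_51_P298873, where it was 1.63-fold lower in BTBR (limma adjusted p = 0.013). Limma called no choroid plexus marker of 6, where the unadjusted and the rank product counts were also 0, while all 6 differences were above 0 with a median of 0.37. It called no hippocampal neuron marker of 8, with 2 at an unadjusted p under 0.05, 4 by the rank product and 7 of 8 differences below 0. All 5 thalamus markers had differences above 0 and none was called by limma (0 at an unadjusted p under 0.05, 2 by the rank product), with a mean level from 10.30 to 10.77 in B6 and from 10.59 to 13.35 in BTBR. The part of thalamus RNA in the values above was not tested.

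Several genes next to Hmgcs1 on chromosome 13 were also called lower in BTBR. The 4 nearest protein-coding genes on each side were taken by RefSeq order, a window set after the Hmgcs1 value was known, and 6 of these 8 had a tested probe. By their brightest probes 3 of the 6 were called, all lower in BTBR. Of all 18399 genes 7.82% were called in either direction, and 796 were called lower. 4833420G17Rik read 13.86, 13.87, 13.77 and 13.76 in B6 and 12.01, 12.21, 11.97 and 12.01 in BTBR, 3.40-fold lower (limma adjusted p = 9.5e-07), and its second probe gave -1.59. Tmem267, named Gm7120 on the array, read 11.74, 11.16, 11.77 and 11.80 in B6 and 10.02, 10.06, 10.39 and 10.50 in BTBR, 2.60-fold lower (limma adjusted p = 9.6e-04). Zfp131, a zinc finger gene, read 13.67, 13.56, 13.66 and 13.54 in B6 and 12.65, 12.82, 13.06 and 12.98 in BTBR, 1.66-fold lower (limma adjusted p = 0.0013). In all 3, which were named because limma called them, the strains did not overlap. Among all tested probes 7.27% had no overlap with BTBR lower.

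The remaining neighbours were mixed. Nim1k, named Nim1 on the array, gave -0.25 at its brightest probe (limma adjusted p = 0.054), -0.84 at a second (adjusted p = 0.0012) and -0.15 at the dimmest one, near background. Paip1 gave -0.07 and 0.09 at 2 probes and 0.94 at the other, which was called higher (limma adjusted p = 5.0e-05), and AF067063 gave 0.02 at both probes. For the other 6 members, 48 neighbours chosen the same way held 36 tested genes, and none was called by limma at the brightest probe, with 5 at an unadjusted p under 0.05 and 0 by the rank product. Whether Hmgcs1 and its neighbours share a cause was not tested.

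**Figure D5:**
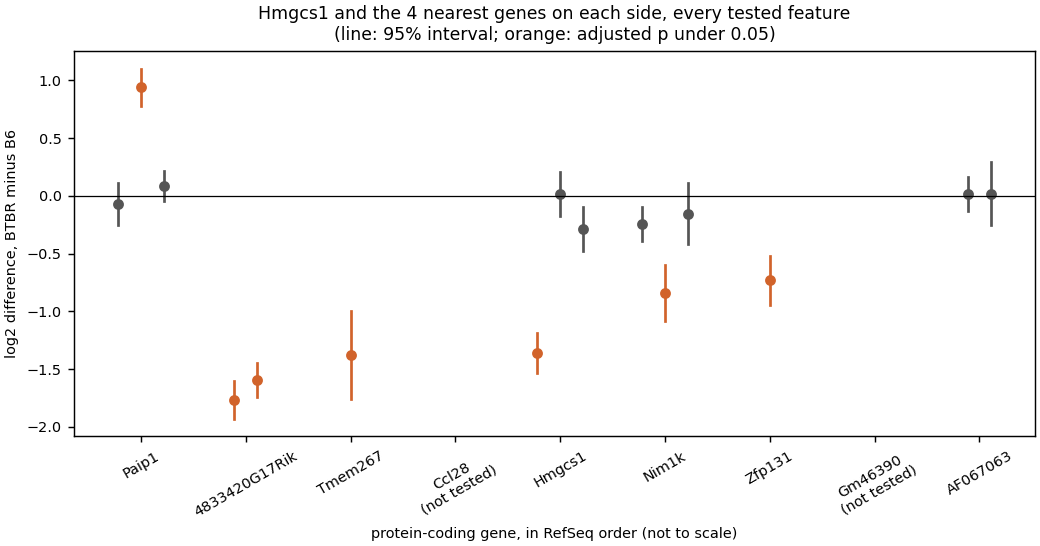
Log2 difference, BTBR minus B6 (vertical axis), of every tested probe of Hmgcs1 and of the 4 nearest protein-coding genes on each side, in gene order and not to scale, with 95% intervals and called probes in orange. Called falls run from -1.77 in 4833420G17Rik to -0.73 in Zfp131, and 1 Paip1 probe is higher at 0.94.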

How the data were processed

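Spot intensity values, not scaled between arrays, were deposited by the authors for single-color Agilent arrays of Cy3-labeled RNA, and per the file headers Feature Extraction 10.7.3.1 read them. The submitters' processing notes name Agilent Feature Extraction 9.1. A deposited matrix of log2 values, which the authors had background subtracted and quantile normalized, served as an alternative. Probe coordinates are mm9, and upstream sequences and gene order come from RefSeq (build GRCm38.p6).

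Median local background was subtracted from mean intensity (minimum 0.5), 50 was added, and log2 values of the 45018 spots were quantile normalized. Replicate spots were summarized by the median. Control probes were removed, as were 154 probes flagged as outliers on at least 1 array. A probe was tested when well above background on at least 75% of the arrays of 1 strain. Limma 3.58.1 in R 4.3.3, with the package data.table (1.17.8), fitted strain alone to 4 mice per strain, and Python 3.11.15 with matplotlib 3.10.9 searched motifs and drew figures. The rank product used 100 permutations and a threshold of 0.05 on the percentage of false positives (pfp). The limma step was tested on simulated data. For single values, an exact permutation test of 4 against 4 cannot go below p = 0.0286.

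Genes were named by a rule: all members at every probe, up to 3 called genes per direction from each cholesterol list, Srebf2 and Insig1 in any case, up to 2 called genes from each marker list, and the 5 genes most alike. Members and lists were chosen with earlier results of these data known. The neighbor window, the group of members without Dhcr7, Ggps1, Dhdds, Soat1, Aldoc, Syt1, Elovl6, Abca1 and Abcg1 were chosen after their values were seen. Promoter windows were matched by symbol. Alternatives were the processed signal, normexp, the deposited matrix, median centring, an offset of 1, other filters, the median over probes, each array left out, replicate or slide blocks, the difference within each slide with the spread pooled over both slides, limma with trend and robust options, and the rank product. Some genes of the cholesterol lists are not reported here, and counts leave them out. The qRT-PCR data and the En2 mice were not analysed here.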

Additional observations from a re-analysis of the deposited data

Results flagged for a closer look

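In 4 of 52 strain groups looked at, 1 array stood apart from the other 3 by more than Dixon's critical ratio of gap to range for 4 samples, where chance gives about 1 in 20. Among members, BTBR replicate 1 was high for Cyp51 at A_52_P636752 (9.97 against 9.65 to 9.68, ratio 0.902). BTBR replicate 4 was low for Fdft1 at A_52_P136138 (7.89 against 8.02 to 8.04, ratio 0.842). Outside the members, BTBR replicate 2 was low for Sc5d at A_52_P67637 (13.16 against 13.41 to 13.45, ratio 0.866) and B6 replicate 4 was low for Srebf2 (15.57 against 15.77 to 15.79, ratio 0.884).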

How the results depend on the processing

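Over all 23 alternatives, Hmgcs1 A_51_P146941 was called lower in all but 1, with differences from -1.45 to -1.27 elsewhere; with each gene taken as the median of its probes Hmgcs1 stood at 0.018 (adjusted p = 0.94), because the middle probe then represents it. Called member probes numbered 1 and became 0 under that median, 2 with the slide as a block, and 1 to 2 with single arrays left out (2 without B6 replicate 1 or BTBR replicate 1). Calls over the whole array numbered 2129, with 1036 within slide 2 (spread pooled over both slides, as in each single-slide value here), 1107 by the rank product and 1533 to 2183 with single arrays left out. Genes called in the cholesterol lists changed as follows. Other synthesis enzymes went from 1 to 0 under the median over probes and 1 to 2 with arrays left out. The isoprenoid branch went from 1 to 2 with the processed signal or the median over probes and to 0 within either slide. SREBP regulation went from 0 to 1 within slide 1 and 0 to 1 with arrays left out, the call coming without BTBR replicate 3. Uptake stayed at 0 under these alternatives. Export went from 2 to 4 within slide 1 and to 0 within slide 2 or by the rank product. Fatty acid targets went from 0 to 1 with the slide block or within slide 1. The cause of these changes was not tested.

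Median centring moved the median of all probes from 0.01 to -0.01 and the share of calls lower in BTBR from 56.6% to 63.0%. Of the 15 member probes 12 were below 0 in the reported values, and 15 without BTBR replicate 1. Same-numbered replicates did not deviate together in all 4 pairs (correlations -0.14, 0.51, -0.10 and 0.39; replicates 2 and 4 of B6 correlated best with their own number), so the numbers were not taken to pair the samples; with the replicate block the array held 1650 calls and the members 1. Signal near background limits Hmgcs1 A_52_P119039, which ranged from -0.87 with the processed signal to -0.17 with the deposited matrix, and Fdft1 A_52_P136138, well above it on 3 of 4 arrays per strain.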
